A study of Mus musculus with 22 samples.

Results

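The genes described here encode 10 subunits of the Polycomb repressive complexes. They were taken by gene symbol from an expression table of 55335 mouse genes. Ezh2, Ezh1, Eed, Suz12, Jarid2 and Mtf2 belong to Polycomb repressive complex 2 (PRC2), and Rnf2, Ring1, Pcgf6 and Cbx7 belong to Polycomb repressive complex 1 (PRC1). Each symbol matched 1 gene in the table.

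The study depleted the histone variant H2A.Z in mouse preimplantation embryos by RNA interference and asked what its loss does to transcription as development proceeds. RNA-seq covered 22 libraries from 3 stages (2-cell, morula and blastocyst), each with controls and with embryos after H2A.Z knockdown (KD). Values are FPKM, fragment counts corrected for transcript length and for the mapped total of the library. FPKM carry no read counts, so the depth behind each value is unknown. The FPKM of a library summed to between 423915 and 722576.

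The embryos came from superovulated B6D2F1 females (C57BL/6 crossed to DBA/2), 8 weeks old, that were mated with B6D2F1 males. They were collected at up to 44 h after human chorionic gonadotropin for the 2-cell stage, at 78 h for morulae and at 94 h for blastocysts. KD embryos had received about 10 pl of a mix of siRNAs against H2A.Z, at a working concentration of 20 µM, as zygotes. The groups held 4 control and 3 KD libraries of 2-cell embryos, 4 control and 3 KD libraries of morulae, and 4 control and 4 KD libraries of blastocysts. Each library pooled 15 embryos and was made from polyadenylated RNA by the Smart-seq2 method, so a value is an average over whole embryos and their cell types. How the control embryos of these libraries were treated was not stated, while the quantitative PCR of the study used noninjected controls. Nothing in the labels says that libraries of a group are separate cultures, so p-values measure only the spread between libraries. The paper reported that the knockdown sharply reduced blastocyst formation while embryos still reached the morula. A difference between KD and control blastocysts can therefore reflect developmental progress or the gene itself, and these cannot be told apart here.

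Polycomb proteins keep developmental genes silent by modifying histones at their promoters. PRC2 methylates histone H3 through Ezh2 or Ezh1, held on a scaffold of Eed and Suz12, while PRC1 ubiquitinates histone H2A through Rnf2 or Ring1. In embryonic stem cells both complexes sit at promoters of lineage regulators, and H2A.Z is found at many of the same promoters. For embryos the paper followed the H3 methylation that PRC2 makes, and did not measure binding of either complex. Before the morula, it reported, most promoters with H2A.Z lacked this methylation. Some of them acquired it as lineage commitment proceeded.

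The knockdown was checked first on its target. H2afz, which encodes H2A.Z, stood at 1244, 1237, 905 and 1178 FPKM in 2-cell controls and at 415, 139 and 112 FPKM in 2-cell KD embryos. In morulae it was 1158, 1336, 1511 and 1421 FPKM in controls and 30.3, 25.7 and 29.0 FPKM in KD embryos. In blastocysts it was 2656, 2430.5, 1945 and 2055 FPKM in controls and 64.2, 67.2, 53.2 and 57.6 FPKM in KD embryos. Every KD library lay below every control library of its stage, with the 2-cell KD replicate 1 the least depleted. The log2 fold change was -2.53 (SE 0.382, adjusted p = 0.544 by limma) at the 2-cell stage, -5.41 (SE 0.167, adjusted p = 9.72e-08) in morulae and -5.19 (SE 0.195, adjusted p = 3.63e-08) in blastocysts. Without 2-cell KD replicate 1 the 2-cell value was -3.12 (adjusted p = 0.000909). H2afv, which encodes the second form of H2A.Z, had a log2 fold change of -0.23 (adjusted p = 0.839) at the 2-cell stage, and fell by 2.94 in morulae (adjusted p = 2.92e-06) and by 1.86 in blastocysts (adjusted p = 7.98e-05). KD morulae and KD blastocysts had low RNA of both H2A.Z genes. Of the 50-base stretches of H2afz transcripts, 35.4% also occur in other genes, chiefly Tmcc1, whereas H2afv shares none.

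Genes were called at an adjusted p under 0.05 in limma, fitted to log2(FPKM + 1) across all genes that passed a filter on low values, so fold changes of genes near 1 FPKM are understated. Of the 10 Polycomb genes 9 passed that filter in each comparison, and Ring1 passed in none. At the 2-cell stage limma called 0 of the 9 higher and 0 lower in KD embryos, against 0% and 0% of 12160 genes, while 701 genes had an unadjusted p under 0.05. Even the depleted H2afz was not called there by limma (adjusted p = 0.544), so this result does not show that the members were unchanged. In morulae 1 of the 9 was higher and 0 lower, against 4.22% higher and 9.05% lower among 10989 genes. In blastocysts 2 were higher and 0 lower, against 16.7% higher and 19.8% lower among 11828 genes. With 9 genes tested, these counts do not set the members apart from genes in general. Without 2-cell KD replicate 1 limma called 3 genes at the 2-cell stage, and without control replicate 2 it called 1. The 1459 genes called in morulae became 910 and 854 without control replicates 7 and 8, and 579 and 552 without KD replicates 1 and 2. The median log2 fold change of the 9 genes was 0.17, 0.10 and 0.19 at the 3 stages in turn, against 0.00, 0.02 and 0.00 over all genes tested.

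Between control stages 8 and then 4 of the 9 genes passed the test. Between control 2-cell embryos and control morulae 3 of the 9 rose and 5 fell, against 43% and 40.3% of 13655 genes. Between control morulae and control blastocysts 0 rose and 4 fell, against 27.6% and 28.8% of 11849 genes. The median log2 fold change of the 9 was -0.54 and -0.57, against 0.10 and -0.03 over all genes. Whether the KD effect differed between blastocysts and morulae was tested by an interaction term. It was higher in blastocysts for 1 of the 9 and lower for 0, against 5.43% and 6.3% of 12727 genes. The 1493 genes called by that test became 958 without KD morula replicate 1. These comparisons share control libraries, so their results are not independent of each other.

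**Figure D1:**
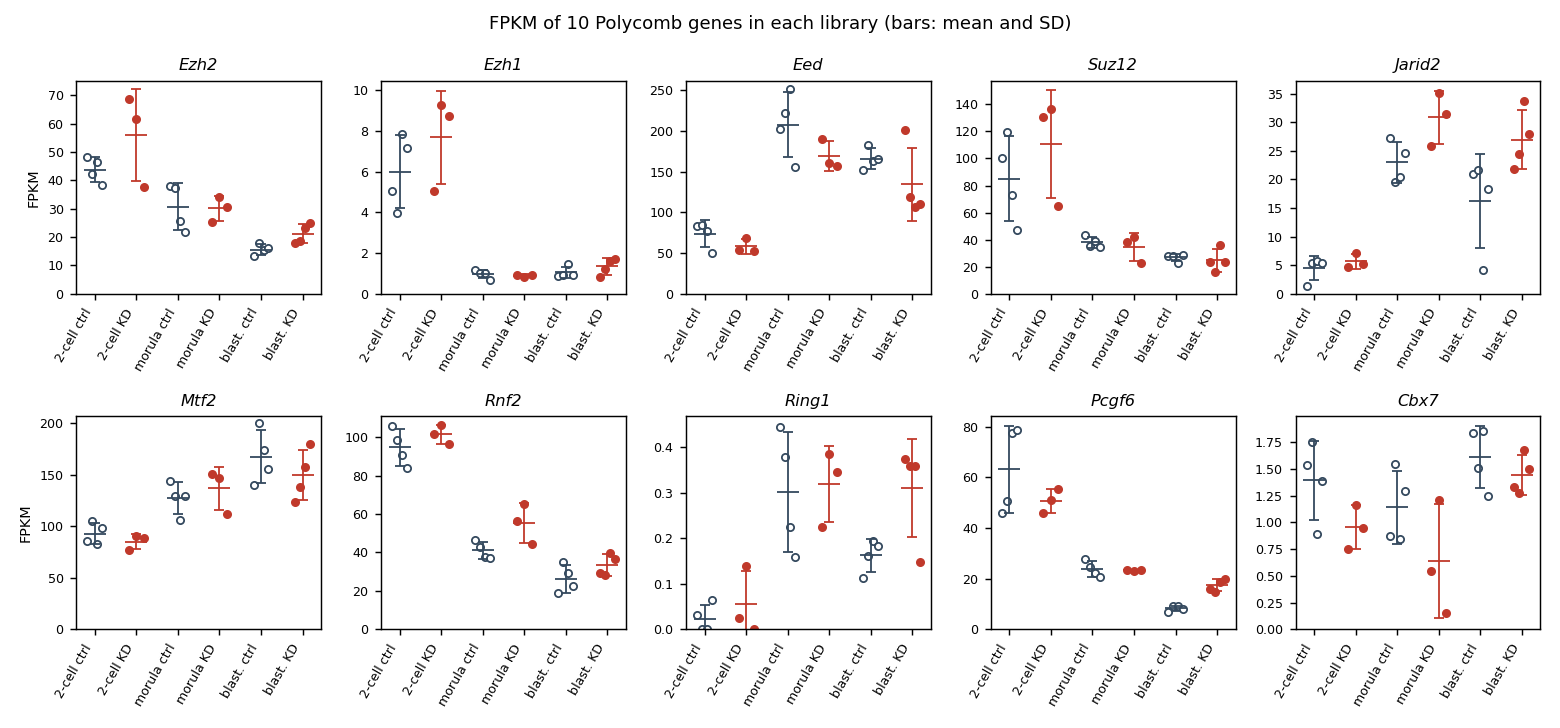
FPKM of each of the 10 Polycomb genes in every library, by stage and treatment, with points for libraries and lines for the group mean and SD. Pcgf6 stands at 6.83 to 9.12 FPKM in control blastocysts and at 14.7 to 19.9 FPKM in KD blastocysts, and Ring1 stays under 1 FPKM in all libraries.

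The catalytic subunits of PRC2 differed widely in level. Ezh2 (ENSMUSG00000029687.16, chr6:47530139-47595341 of GRCm38, minus strand), the main H3 methyltransferase of dividing cells, was at 48.2, 42.2, 46.4 and 38.3 FPKM in 2-cell controls. It was at 38.0, 37.3, 25.7 and 21.7 FPKM in control morulae and at 13.2, 17.8, 15.4 and 16.0 FPKM in control blastocysts. Each control stage lay wholly below the stage before it. Ezh2 fell by 0.54 on the log2 scale from the 2-cell stage to the morula (SE 0.185, adjusted p = 0.017) and by 0.98 from morula to blastocyst (SE 0.174, adjusted p = 0.00048). The earlier of these decreases missed the threshold without control morula replicate 7 (adjusted p = 0.0668) or replicate 8 (adjusted p = 0.0802), the 2 morula controls with the lower values. With libraries scaled to an equal total that decrease was 0.93 (adjusted p = 0.00143).

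In KD embryos Ezh2 was at 68.5, 61.5 and 37.7 FPKM at the 2-cell stage, at 25.4, 34.3 and 30.6 FPKM in morulae and at 18.0, 18.7, 23.1 and 25.1 FPKM in blastocysts. The groups overlapped at the 2-cell and morula stages, and in blastocysts every KD library was above every control library, with 18.0 against 17.8 FPKM at the nearest pair. In blastocysts the log2 fold change was 0.42 (SE 0.154, adjusted p = 0.0496). This call was lost when any 1 of the 8 libraries was left out. The adjusted p was 0.0899, 0.0705, 0.113 and 0.106 without control replicates 1, 4, 5 and 6, and 0.0545, 0.064, 0.0612 and 0.151 without KD replicates 1, 4, 5 and 6, with log2 fold changes from 0.35 to 0.46. It was also lost without scaling (adjusted p = 0.0757). At the 2-cell stage the log2 fold change was 0.37 (adjusted p = 0.828). In morulae it was 0.12 (adjusted p = 0.709), a value that was negative with libraries scaled to an equal total. The difference between the blastocyst and morula effects was 0.26 (adjusted p = 0.529).

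Ezh1 (ENSMUSG00000006920.14, chr11:101191115-101226463, minus strand), the weaker methyltransferase known from resting cells, was a minor form. It was at 5.04, 3.96, 7.84 and 7.18 FPKM in 2-cell controls, and between 0.685 and 1.46 FPKM in all control morulae and blastocysts. The 2-cell values were separate from all later control values. Ezh1 fell by 1.80 from the 2-cell stage to the morula (SE 0.177, adjusted p = 1.37e-06) and had a log2 fold change of 0.01 from there to the blastocyst (adjusted p = 0.972). Its share of the summed Ezh1 and Ezh2 FPKM was 12.1% ± 3.59 (SD, n = 4) in 2-cell controls, 3.15% ± 0.452 (SD, n = 4) in control morulae and 6.35% ± 1.58 (SD, n = 4) in control blastocysts. The shares in KD embryos were 12.9%, 2.96% and 5.88%, each within the range of its control libraries. KD values of Ezh1 overlapped the controls at each stage, with log2 fold changes of 0.37, 0.01 and 0.19 that did not pass the test. The morula value, like that from control morula to blastocyst, was negative with libraries scaled to an equal total, and the former was also negative without scaling.

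Eed, the subunit that reads the methyl mark and stimulates the enzyme, rose into the morula while Ezh2 fell. Eed (ENSMUSG00000030619.10, chr7:89954654-89980983, minus strand) was at 83.7, 85.0, 76.8 and 49.9 FPKM in 2-cell controls and at 203, 222, 251 and 156 FPKM in control morulae. All morula controls were above all 2-cell controls. Eed rose by 1.48 on the log2 scale (SE 0.225, adjusted p = 5.79e-05). Control blastocysts, at 152, 182, 163 and 166 FPKM, overlapped the morulae, with a log2 fold change of -0.39 (adjusted p = 0.0521). That comparison passed the threshold without control morula replicate 1 (-0.46, adjusted p = 0.0331) or replicate 8 (-0.50, adjusted p = 0.0261), and with an equal total (-0.50, adjusted p = 0.0169). In KD blastocysts Eed was at 202, 118.5, 107 and 110.4 FPKM, so replicate 1 was above all controls and the other libraries were below them. The log2 fold change was -0.34 (SE 0.224, adjusted p = 0.254), and without KD replicate 1 it was -0.58 (adjusted p = 0.0193). KD 2-cell embryos and morulae overlapped their controls, with log2 fold changes of -0.24 and -0.16 that did not pass the test.

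Suz12, the scaffold subunit that holds the accessory proteins, declined through development as Ezh2 did. Suz12 (ENSMUSG00000017548.15, chr11:79993106-80034123, plus strand) was at 100.3, 119.6, 73.3 and 47.5 FPKM in 2-cell controls, at 43.7, 35.3, 39.1 and 34.9 FPKM in control morulae and at 28.1, 28.2, 22.9 and 28.7 FPKM in control blastocysts. Each stage lay wholly below the one before. It fell by 1.07 (SE 0.271, adjusted p = 0.00295) and then by 0.57 (SE 0.148, adjusted p = 0.00599). KD values overlapped the controls at each stage, with log2 fold changes of 0.44, -0.07 and -0.16 and no call.

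The accessory subunits among the members are Jarid2 and Mtf2. Jarid2 (ENSMUSG00000038518.15, chr13:44729474-44921643, plus strand), which guides PRC2 to chromatin, was at 1.46, 5.43, 5.75 and 5.42 FPKM in 2-cell controls and at 27.3, 19.5, 20.5 and 24.7 FPKM in control morulae. Replicate 1 of the 2-cell controls was the lowest library, and all morulae were above all 2-cell embryos. Jarid2 rose by 2.22 (SE 0.281, adjusted p = 1.21e-05), and by 1.86 without that library (adjusted p = 1.79e-06). Control blastocysts were at 20.9, 21.7, 4.11 and 18.3 FPKM and KD blastocysts at 21.8, 24.4, 33.6 and 27.9 FPKM. All KD blastocysts were above all controls, and control replicate 5 lay far below the rest. This gave a log2 fold change of 0.89 (SE 0.409, adjusted p = 0.108), and without control replicate 5 it was 0.34 (adjusted p = 0.158). The change from control morula to control blastocyst was -0.76 (adjusted p = 0.14), or -0.21 without the same library (adjusted p = 0.316). In KD morulae Jarid2 was at 25.9, 35.2 and 31.4 FPKM, which overlapped the controls, with a log2 fold change of 0.53 (SE 0.172, adjusted p = 0.0661). It passed the limma test with ranges of replicate numbers fitted as a batch (adjusted p = 0.0436), a setting chosen after seeing the data.

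Mtf2 (ENSMUSG00000029267.17, chr5:108065674-108109004, plus strand), a Polycomb-like protein that binds unmethylated CG-rich DNA, was the most even of the members. Its group means ran from 85.1 to 167 FPKM, a ratio of 1.97 between highest and lowest. It rose by 0.44 from 2-cell embryos to morulae (SE 0.163, adjusted p = 0.0238), with all morula controls above all 2-cell controls. The call was lost without 2-cell control replicate 1 (adjusted p = 0.0589) or replicate 4 (adjusted p = 0.0742), and with libraries scaled to an equal total the value was 0.0578 (adjusted p = 0.718). From morula to blastocyst the log2 fold change was 0.30 (adjusted p = 0.0938), or 0.39 without scaling (adjusted p = 0.0396). KD values overlapped the controls at each stage, with log2 fold changes of -0.05, 0.22 and -0.15.

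The catalytic pair of PRC1 was almost entirely Rnf2. Rnf2 (ENSMUSG00000026484.13, chr1:151458004-151500955, minus strand), the main H2A ubiquitin ligase, was at 106, 98.6, 90.5 and 83.8 FPKM in 2-cell controls, at 46.5, 43.0, 37.6 and 37.1 FPKM in control morulae and at 18.9, 35.2, 29.1 and 22.3 FPKM in control blastocysts. The 3 stages did not overlap. Rnf2 fell by 1.19 (SE 0.16, adjusted p = 2e-05) and then by 0.74 (SE 0.169, adjusted p = 0.00288). In KD morulae it was at 56.5, 65.3 and 44.5 FPKM. Of these, replicates 1 and 2 were above all controls, and replicate 6 lay below the highest control. The log2 fold change was 0.54 (SE 0.152, adjusted p = 0.0425). The call was lost without control replicate 2 (adjusted p = 0.0676), 7 (0.0972) or 8 (0.0938) and without KD replicate 1 (0.116) or 2 (0.19). It was kept without control replicate 1 (0.0461) and KD replicate 6 (0.0336). It was also lost with no filter (0.0996), without scaling (0.102) and with an equal total (0.151). KD blastocysts, at 29.3, 28.2, 39.9 and 36.4 FPKM, overlapped their controls (log2 fold change 0.36, adjusted p = 0.136). The effect did not differ between blastocysts and morulae in the interaction test at the threshold (-0.21, adjusted p = 0.603). At the 2-cell stage the log2 fold change was 0.17.

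Ring1 (ENSMUSG00000024325.8, chr17:34020792-34024680, minus strand), the paralogue of Rnf2, ran from 0 to 0.445 FPKM over the 22 libraries and did not pass the filter. Tested with no filter, it rose by 0.33 from 2-cell controls to control morulae (adjusted p = 0.00276), at group means of 0.0236 and 0.301 FPKM, and was not called in the other comparisons. Its share of the summed Ring1 and Rnf2 FPKM was at most 1.26% in any library.

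Pcgf6 (ENSMUSG00000025050.8, chr19:47033617-47050906, minus strand) encodes the subunit that defines the variant PRC1.6 found at germline genes, and it was the member whose KD call held without any 1 library. It was at 45.8, 50.6, 77.3 and 78.5 FPKM in 2-cell controls, at 27.8, 24.8, 22.2 and 20.7 FPKM in control morulae and at 6.83, 9.06, 9.12 and 8.16 FPKM in control blastocysts. The stages were fully separate. Pcgf6 fell by 1.34 (SE 0.172, adjusted p = 1.39e-05) and again by 1.501 (SE 0.136, adjusted p = 3.33e-06).

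KD embryos had Pcgf6 at 45.9, 50.9 and 55.2 FPKM at the 2-cell stage, at 23.4, 23.0 and 23.5 FPKM in morulae and at 16.0, 14.7, 18.8 and 19.9 FPKM in blastocysts. The 2-cell and morula groups overlapped their controls, while all 4 KD blastocyst libraries were above all 4 controls and below all morula libraries. KD blastocysts had a log2 fold change of 0.99 (SE 0.153, adjusted p = 0.000481), a 1.98-fold higher level of FPKM + 1. It stayed between 0.93 and 1.03 in 8 fits that each lacked a library, with an adjusted p of at most 0.00255. At the 2-cell stage the value was -0.21 (adjusted p = 0.868), and in morulae it was 0.10 (adjusted p = 0.664), a small value that was negative without scaling or with libraries scaled to an equal total. The interaction test gave a KD effect that was 0.85 higher in blastocysts than in morulae (SE 0.18, adjusted p = 0.00605), and this held without any 1 of the 15 libraries. The part of developmental progress in the blastocyst and interaction values was not tested.

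Cbx7 (ENSMUSG00000053411.16, chr15:79915807-79971119, minus strand), the chromodomain subunit through which canonical PRC1 binds methylated H3, was low throughout. It ranged from 0.152 to 1.85 FPKM over the 22 libraries. All 6 groups overlapped their neighbours in level, and no comparison called it, with KD log2 fold changes of -0.25, -0.38 and -0.09. With libraries scaled to an equal total it fell by 0.48 from the 2-cell stage to the morula (adjusted p = 0.0474), in place of 0.17 (adjusted p = 0.414).

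**Figure D2:**
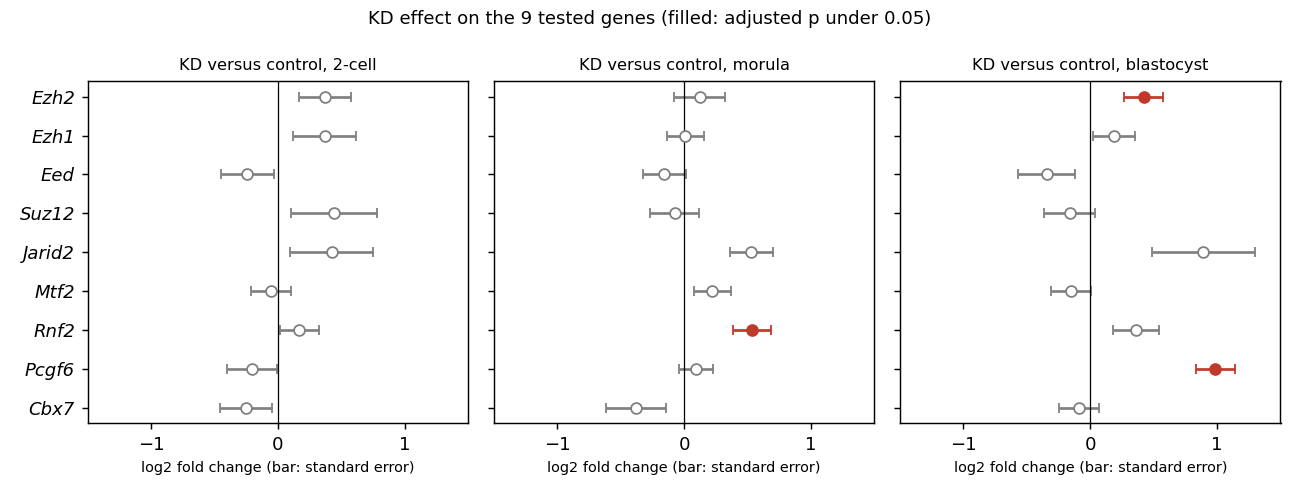
Log2 fold change of KD against control with its standard error for the 9 tested Polycomb genes at the 3 stages, on the log2(FPKM + 1) scale. Pcgf6 in blastocysts, at 0.99, is the value farthest from 0.

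Ranked by group mean, Ezh2, Suz12, Rnf2 and Pcgf6 shared the same order of stages, highest in 2-cell embryos and lowest in blastocysts. For Ezh2 the order was KD 2-cell, control 2-cell, control morula, KD morula, KD blastocyst and control blastocyst. In it the 2 groups of the 2-cell stage overlapped, as did those of the morula, and all other neighbours were separate. For Pcgf6 only the control and KD groups of the 2-cell stage and of the morula overlapped, from 63.0 FPKM in control 2-cell embryos down to 8.29 FPKM in control blastocysts. Eed was highest in control morulae at 208 FPKM and lowest in KD 2-cell embryos at 58.6 FPKM, and its morula and blastocyst groups overlapped along the order. For Jarid2 all neighbours in the order overlapped, from 30.8 FPKM in KD morulae to 4.51 FPKM in 2-cell controls. Control blastocysts overlapped KD 2-cell embryos only through control replicate 5, at 4.11 FPKM. The ratio of highest to lowest group mean was 8.55 for Ezh1, 7.61 for Pcgf6, 6.83 for Jarid2, 4.46 for Suz12, 3.85 for Rnf2, 3.58 for Ezh2, 3.55 for Eed and 2.53 for Cbx7. It was 13.5 for Ring1, whose group means were all under 1 FPKM.

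Levels were also ranked among all genes with a group mean of at least 1 FPKM. In 2-cell controls Rnf2, Mtf2, Suz12, Eed, Pcgf6 and Ezh2 lay at the percentiles 94.7, 94.6, 94.1, 92.9, 91.6 and 87.9 of 11859 genes, and Ezh1, Jarid2 and Cbx7 at 50.4, 43.3 and 10.1. In control blastocysts Mtf2 and Eed were at 94.2 and 94.1 of 11048 genes, Suz12 at 75.7, Rnf2 at 75.4, Jarid2 at 67.4, Ezh2 at 66.7, Pcgf6 at 53.5, Cbx7 at 12.7 and Ezh1 at 1.49. In KD blastocysts Pcgf6 was at 69.4 and Ezh2 at 73.

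Part of several genes is also covered by a gene on the opposite strand, and Smart-seq2 reads do not tell strands apart. The shared exonic length was 395 bases for Mtf2 with Tmed5, 261 for Eed with E230029C05Rik, 178 for Suz12 with Gm26563, 174 for Ezh2 with Gm26625, 158 for Rnf2 with Trmt1l and 100 for Cbx7 with Apobec3. Ezh1, Jarid2, Ring1 and Pcgf6 had no exonic overlap. In bulk embryos, fewer cells of a type and less RNA per cell cannot be told apart.

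The other Polycomb genes were followed in 7 lists of 56 genes. At the 2-cell stage limma called 0 of 38 tested genes of these lists, with a median log2 fold change of 0.10. In KD morulae 2 of 28 were higher and 1 lower, against 4.22% and 9.05% of all genes tested. In KD blastocysts 8 of 29 were higher and 2 lower, against 16.7% and 19.8%. From 2-cell embryos to morulae 6 of 39 rose and 29 fell, against 43% and 40.3%, and from morulae to blastocysts 3 of 31 rose and 20 fell, against 27.6% and 28.8%. The filter shapes these stage counts, since a gene at 1 FPKM or more in only the higher stage enters the test and can only change in that direction. This held for 1 of the 6 rises and 9 of the 29 falls into the morula, and for 1 of the 3 rises and 1 of the 20 falls into the blastocyst. The interaction test called 2 of 34 higher, Kdm2b and Bap1, and 1 lower, Bmi1, against 5.43% and 6.3%. Bap1 (0.85, adjusted p = 0.0434) kept its call without control morula replicate 2 or 7, control blastocyst replicate 5 or KD blastocyst replicate 4, and lost it without any other library (0.051 to 0.115) and with no filter (0.0923). Bmi1 (-0.78, adjusted p = 0.0467) kept its call without control morula replicate 8 or control blastocyst replicate 5, and lost it without any other library (0.0525 to 0.117). It was also lost with a pseudocount of 0.1 (0.0512), with no filter (0.0798), without scaling (0.108) and with an equal total (-0.53, adjusted p = 0.219).

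In the variant PRC1 list 6 of 13 tested genes were higher in KD blastocysts and 0 lower, against 16.7% and 19.8% of all genes, and 5 of these 6 calls were lost without some of the libraries. Kdm2b, the CG-binding subunit of variant PRC1.1, was at 1.05, 1.13, 1.13 and 1.32 FPKM in control blastocysts and at 7.14, 4.54, 10.6 and 5.96 FPKM in KD blastocysts. All KD libraries were above all controls. The log2 fold change was 1.85 (SE 0.198, adjusted p = 4.58e-05), between 1.70 and 2.00 in fits that each lacked a library. In KD morulae Kdm2b had a log2 fold change of -1.06 (adjusted p = 0.138), and the interaction was 2.87 (SE 0.513, adjusted p = 0.00182). Control embryos showed Kdm2b at 23.4, 11.2, 12.7 and 6.55 FPKM in morulae, and it fell by 2.68 into the blastocyst (adjusted p = 4.53e-06).

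Other genes of this list were nearer the threshold. E2f6, the DNA-binding partner of Pcgf6 in PRC1.6, was higher by 0.87 in KD blastocysts (adjusted p = 0.038), but not without KD replicate 1 (adjusted p = 0.0602), 5 (0.0878) or 6 (0.083). Without control replicate 1, at 1.58 FPKM against 6.44 to 7.25 FPKM in the other controls, it was 0.50 (adjusted p = 0.0428). Pcgf5 was higher by 0.71 (adjusted p = 0.0301), but not without control replicate 6 (0.46, adjusted p = 0.0807) or KD replicate 4 (0.0503), 5 (0.0508) or 6 (0.0847). Yaf2, which links Rnf2 to variant complexes, was higher by 0.63 (adjusted p = 0.0401) with overlapping groups. That call was lost without control replicate 1 (0.107), 5 (0.0632) or 6 (0.103) and without KD replicate 1 (0.101) or 6 (0.108). Dcaf7 was higher by 0.51 (adjusted p = 0.0385), and this was lost without control replicate 1 (0.0836), 5 (0.0764) or 6 (0.0983) and without KD replicate 1 (0.0857), 5 (0.0637) or 6 (0.101). Usp7, a deubiquitinase bound to PRC1, was higher by 0.43 (adjusted p = 0.0474). It was lost without control replicate 1 (0.0871), 4 (0.116), 5 (0.0928) or 6 (0.0706) and without KD replicate 1 (0.0836), 5 (0.0931) or 6 (0.0926). With no filter E2f6 (0.158), Pcgf5 (0.114), Yaf2 (0.117) and Dcaf7 (0.0557) were not called, and without scaling neither were E2f6 (0.0665), Yaf2 (0.0587), Dcaf7 (0.0635) and Usp7 (0.085). With an equal total E2f6 (0.0641) and Usp7 (0.0593) were not called. Dcaf7 passed in 4 of the 7 alternatives that kept all libraries.

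In KD morulae the same list gave 2 higher and 0 lower of 14 tested genes, against 4.22% and 9.05% of all genes. Yaf2 was higher by 0.77 (adjusted p = 0.0158), but not without KD replicate 1 (0.0671) or 2 (0.054). Usp7 was higher by 0.54 (adjusted p = 0.033), but not without control replicate 2 (0.0544), 7 (0.0846) or 8 (0.0691) or KD replicate 1 (0.106) or 2 (0.147). With no filter neither was called (0.0553 and 0.062), nor was Usp7 without scaling (0.0811) or with an equal total (0.125). All KD libraries were above all controls for both genes.

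In KD blastocysts limma called 1 higher of 4 tested genes for H2A deubiquitinases and their partners, against 16.7% of all genes. This was Usp16, which removes ubiquitin from H2A. It was at 24.6, 18.8, 33.6 and 30.9 FPKM in KD blastocysts against 13.7, 18.8, 15.3 and 17.1 FPKM in controls. All KD libraries were above all controls, though the nearest pair were both at 18.8 FPKM when rounded, and the log2 fold change was 0.68 (adjusted p = 0.00947). Bmi1, a canonical PRC1 subunit, was lower by 0.59 in KD blastocysts (adjusted p = 0.0219), but not without control replicate 1 (0.052) or 4 (0.0663) or KD replicate 1 (0.0588), nor with an equal total (0.073). AU022751, the mouse gene for the PRC2 inhibitor Ezhip, was lower by 0.90 in KD morulae (adjusted p = 0.0162), but not without KD replicate 1 (0.0671) or 2 (0.0519) or with no filter (0.0813). All 3 KD morulae were under 1 FPKM (0.729, 0.984 and 0.985) and all controls above it, so this gene entered the test through its controls and could only be lower. In KD blastocysts it was lower by 0.47 (adjusted p = 0.0466), lost without control replicate 1 (0.0718), 4 (0.113), 5 (0.0674) or 6 (0.0629) and KD replicate 4 (0.095), 5 (0.0657) or 6 (0.141), with no filter (0.106), with an equal total (0.0943) and with a pseudocount of 0.1 (0.0541). There only KD replicate 1 was above 1 FPKM. In blastocysts AU022751 passed in 3 of the 7 alternatives that kept all libraries. Lcor was higher by 0.53 in KD blastocysts (adjusted p = 0.0345), lost without control replicate 4 (0.103), 5 (0.0524) or 6 (0.0789) and KD replicate 1 (0.085), 4 (0.0741) or 5 (0.06) and with no filter (0.0736). The core PRC2 partners Rbbp4 and Rbbp7, the H3 demethylases and the PhoRC genes had 0 called of 2, 2 and 2 tested genes in KD blastocysts by limma.

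Many genes of these lists passed the test between control stages. Rbbp4 and Rbbp7, the histone-binding partners in PRC2, rose by 1.22 and 1.17 into the morula and fell by 0.88 and 0.76 into the blastocyst. Bmi1 fell by 5.38, AU022751 by 5.24, Sfmbt1 by 4.25, Scml2 by 3.40, Phf1 by 3.32, Fbrsl1 by 3.30, Foxk2 by 2.96 and Cbx2 by 2.85 into the morula, with adjusted p from 2.05e-10 to 0.000126. Of these Sfmbt1, Scml2, Phf1, Foxk2 and Cbx2 were under 1 FPKM in all control morulae, so they entered the test through 2-cell embryos and could only fall. E2f6, which was under 1 FPKM in all 2-cell controls and could only rise, did so by 3.07. The H3 demethylase gene Kdm6b rose by 1.21, while Kdm6a fell by 1.34 and Uty by 1.88. Into the blastocyst Sfmbt2, at 1 FPKM or more in 1 control morula, rose by 2.24, while Mysm1 fell by 1.61 and Pcgf5 by 1.59.

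Of 36 textbook Polycomb target genes, most were too low to test. The list was drawn up with earlier results of these data known, so its counts are no test of Polycomb targets in general. The test included 3 of them at the 2-cell stage, with 0 called by limma, and 7 at each later stage. In KD morulae 3 of 7 were higher and 0 lower, against 4.22% and 9.05% of all genes, and in KD blastocysts 5 of 7 were higher and 0 lower, against 16.7% and 19.8%. Of the 5, Nkx2-9, Hand1, Cdkn2b and Cdkn1c were at 1 FPKM or more in all KD blastocysts and in no control. They entered the test through KD libraries and could only be higher, so the count does not stand for the targets as a whole. Tbx3 was above 1 FPKM in all 8 libraries. Nkx2-9, a homeobox gene of the neural tube floor, was at 10.9, 7.24, 6.10 and 9.09 FPKM in KD blastocysts and at 0.143, 0.107, 0.486 and 0.238 FPKM in controls. No KD library came near the controls, and the log2 fold change was 2.90 (adjusted p = 2.89e-06), after 1.93 in morulae (adjusted p = 0.00106), where 1 control and all KD libraries reached 1 FPKM. There the 3 KD libraries alone met the filter on low values, so that filter shaped the morula count too. Hand1, a trophoblast regulator, was higher by 1.36 (adjusted p = 0.000125), Cdkn2b by 1.25 (adjusted p = 0.000243), Tbx3 by 0.89 (adjusted p = 0.0131) and Cdkn1c by 0.84 (adjusted p = 0.00257) in KD blastocysts. Each call held without any 1 library. For Nkx2-9, Hand1, Cdkn2b and Cdkn1c the filter fixed the direction, so their p-values and these refits are no separate support. With a pseudocount of 0.1 the values were 4.72 for Nkx2-9, 3.49 for Hand1, 2.50 for Cdkn2b and 1.76 for Cdkn1c. With no filter Tbx3 was not called (0.0664). In KD morulae Foxa1 was higher by 1.03 (adjusted p = 0.0123), but not without KD replicate 2 (0.0576) or with no filter (0.0755). Hand1 was higher by 0.99 there (adjusted p = 0.0481), but not without control replicate 2 (0.0842), 7 (0.0936) or 8 (0.102) or KD replicate 1 (0.174) or 2 (0.142), nor with a pseudocount of 0.1 (0.0529), with no filter (0.201), without scaling (0.0994) or with an equal total (0.116). The interaction test called 0 of 8 target genes, against 5.43% and 6.3% of all genes, and Nkx2-9 came nearest (0.88, adjusted p = 0.0745, unadjusted p = 0.0111).

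Genes imprinted by maternal H3 methylation were few. In KD blastocysts 1 of 6 tested was lower and 0 higher, against 19.8% and 16.7% of all genes, so the count does not set these genes apart. The 1 was Slc38a4, an amino acid transporter gene, which fell by 1.57 (adjusted p = 0.000122). Its interaction was -1.38 (adjusted p = 0.00427). In KD morulae 0 of 3 were called by limma, and at the 2-cell stage 0 of 1.

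Markers of cell types were set beside the Polycomb genes in blastocysts. Of 8 trophectoderm markers 3 were lower and 1 higher in KD blastocysts, against 19.8% and 16.7% of all genes. Their summed FPKM was 2456, 2611, 2094 and 1783 in controls and 771.8, 991.7, 903.8 and 749.3 in KD blastocysts, so all KD libraries were below all controls. This separation rested largely on Dppa1 and Krt18. Krt8 overlapped, at 225, 431, 425 and 289 FPKM in controls and 170, 241, 313 and 231 FPKM in KD blastocysts. Gata3, Eomes and Cdx2 overlapped too. The most abundant gene was Dppa1 in controls, at a mean of 1042 FPKM, and Krt18 in KD embryos, at 389.7 FPKM. Dppa1 fell by 2.56, Elf5 by 1.24 and Krt18 by 1.02, Tfap2c rose by 0.96, and Elf5 was under 1 FPKM in all KD blastocysts. Elf5 entered the test through its controls and no longer passed the filter without control replicate 1, 4 or 5. Of 6 tested epiblast markers 2 were lower and 0 higher, against the same shares of all genes. Tdgf1 was lower by 2.28 and Prdm14 by 1.04, and Prdm14 too entered through its controls, with all KD blastocysts under 1 FPKM. The epiblast sums of 215, 234, 302 and 187 FPKM in controls and 152, 168, 297 and 212 FPKM in KD blastocysts overlapped, with Nanog the most abundant. Esrrb and Fgf4 averaged under 1 FPKM. Of 3 tested primitive endoderm markers limma called 0, and their sums of 110.3 to 179 FPKM in controls and 136 to 185 FPKM in KD blastocysts overlapped, with Dab2 the most abundant and Gata4, Sox17, Sox7, Foxa2 and Col4a1 under 1 FPKM in both group means. The part of these markers in the values of Pcgf6, Ezh2 and Kdm2b was not tested.

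Among all genes 4.22% were higher and 9.05% lower in KD morulae. Of the marker sums of epiblast, trophectoderm and primitive endoderm, only the epiblast sums were separate between KD and control. Epiblast markers summed to 203, 206, 242 and 258 FPKM in controls and to 101, 102 and 162 FPKM in KD morulae. This separation rested largely on Nanog, at 62.9, 102.9, 113 and 143 FPKM in controls and 17.9, 11.6 and 32.5 FPKM in KD morulae. Tdgf1 overlapped, at 75.3, 69.0, 98.1 and 88.3 FPKM in controls and 51.5, 59.7 and 103 FPKM in KD morulae. Pou5f1 was barely separate, with 21.5 FPKM in a control against 21.3 FPKM in a KD library at the nearest pair. Nanog fell by 2.23 (adjusted p = 0.00645, or 0.0718 with no filter), and Klf2 was higher by 0.71 (adjusted p = 0.0279), a call lost without control replicate 2 (0.0505) or 8 (0.0591) or KD replicate 1 (0.0878) or 2 (0.111), with no filter (0.0911), without scaling (0.0733) and with an equal total (0.0954). Klf2 passed in 3 of the 7 alternatives that kept all libraries. Trophectoderm markers summed to 131, 109.6, 131 and 147 FPKM in controls and to 95.8, 83.9 and 121 FPKM in KD morulae, which overlapped, with 0 of 6 tested genes called by limma. Primitive endoderm markers summed to 109.5 to 154.5 FPKM in controls and 113.9 to 131.6 FPKM in KD morulae, with Dab2 the most abundant and 0 of 2 tested genes called by limma. The part of these markers in the value of Rnf2 was not tested. Cumulus and granulosa markers were under 1 FPKM in all groups, with sums of at most 0.16 FPKM. Oocyte markers summed to 768 to 1019 FPKM in 2-cell controls and 808 to 1060 FPKM in KD 2-cell embryos, with Oosp1 the most abundant, and to 5.07 to 10.7 FPKM in control morulae. All 8 fell from the 2-cell stage to the morula, against 40.3% of all genes, but 6 of them were under 1 FPKM in all control morulae and could only fall. In the 3 KD comparisons limma called 0 of 8, 0 of 2 and 0 of 1 tested genes. The part of these maternal RNAs in the decreases of Ezh2, Ezh1, Suz12, Rnf2 and Pcgf6 was not tested.

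The genes with the most similar pattern over the 22 libraries were found by the Pearson correlation of log2(FPKM + 1) among 15697 genes. The libraries share 3 stages, so high values are a description with no test. For Pcgf6 they were Zscan5b (0.985), Sap30 (0.983) and Nek2 (0.979). For Ezh2 they were Ina (0.948), Rrs1 (0.946) and Klrg2 (0.945), and for Cbx7 they were Copa (0.788), Zdhhc17 (0.725) and 1810030O07Rik (0.68).

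Promoter sequence was read for the members from RefSeq (GRCm38.p6), which held 12 promoters for the 10 genes. In the 250 bases before the start, the members had from 2 to 37 CG pairs, against a median of 6 over 32851 promoters. Suz12 had 37 and Ring1 had 30, while the promoter of an alternative start of Mtf2 had 2. The E2F-type letters TTTGGCGC, searched on both strands, occurred in none of the 12 and in 0.417% of all promoters. The E2F-type letters TTTCCCGC occurred in Suz12, 219 bases before the start, and in 0.895% of all promoters. The E-box letters CACGTG, which PRC1.6 partners of the Max family bind, occurred in none of the 12 and in 6.02% of all promoters. Of the members called higher in a KD comparison, only Pcgf6 kept its call without any 1 library. The promoters of the 3 called members are shown. They lie at chr19:47050907-47051156 for Pcgf6, chr6:47595031-47595280 for Ezh2 and chr1:151500992-151501241 for Rnf2, all on the minus strand, and hold 14, 23 and 20 CG pairs, shown in capitals.
Pcgf6: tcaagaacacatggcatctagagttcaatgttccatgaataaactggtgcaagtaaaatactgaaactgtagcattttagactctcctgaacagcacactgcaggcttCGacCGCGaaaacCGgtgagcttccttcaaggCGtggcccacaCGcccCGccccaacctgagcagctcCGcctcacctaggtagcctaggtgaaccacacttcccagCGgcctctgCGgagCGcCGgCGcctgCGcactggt
Ezh2: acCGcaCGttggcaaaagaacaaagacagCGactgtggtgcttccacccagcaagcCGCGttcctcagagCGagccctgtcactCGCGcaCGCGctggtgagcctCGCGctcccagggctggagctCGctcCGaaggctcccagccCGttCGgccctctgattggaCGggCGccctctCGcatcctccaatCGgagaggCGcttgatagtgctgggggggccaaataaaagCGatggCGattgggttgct
Rnf2: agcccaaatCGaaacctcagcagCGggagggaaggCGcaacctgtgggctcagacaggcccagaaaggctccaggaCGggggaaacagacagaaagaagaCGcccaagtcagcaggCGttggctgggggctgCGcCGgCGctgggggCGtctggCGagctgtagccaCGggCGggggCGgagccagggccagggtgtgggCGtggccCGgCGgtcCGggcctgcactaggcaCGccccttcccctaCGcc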

How the data were processed

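Expression was measured by RNA-seq in 22 libraries of pooled control and H2A.Z KD embryos. The authors aligned reads to GRCm38 with STAR and deposited FPKM from StringTie 2.1.4. Their own test on counts, from featureCounts 1.6.2 and DESeq2 1.30.1, was not used. All 22 value columns were assigned to libraries by title, with 0 left over. Genes with at least 1 FPKM in at least 3 fitted libraries were kept. Values were scaled by median-of-ratios factors, and log2(FPKM + 1) was fitted in R 4.3.3 with limma 3.58.1 (eBayes with trend, two-sided). P-values were adjusted by Benjamini-Hochberg over all genes tested. Levels in the text are unscaled FPKM. Tables and plots used Python 3.11.15, numpy 2.4.6, pandas 2.3.3 and matplotlib 3.10.9. The procedure was tested on simulated data.

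The scaling factors were centred to a geometric mean of 1. This was set after a first fit had been seen. Without centring no call of a Polycomb member changed, and the number of genes called was 1458 in place of 1459 in KD morulae, 6687 in place of 6686 from morula to blastocyst and 1495 in place of 1493 in the interaction test.

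The 10 members were always named, with H2afz and H2afv. Of the wider lists, called genes were named, at most 6 per list and comparison by absolute log2 fold change, and in the stage comparisons some of these are given by count alone. For Ezh2, Cbx7 and Pcgf6 the 3 most correlated genes were named. The members and lists were chosen with earlier results of these data known. Alternatives were a pseudocount of 0.1, no filter, FPKM as deposited, libraries scaled to an equal total of 1e+06, the replicate number as a block, a batch by range of replicate numbers, uncentred scaling and leaving out each library.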

Additional observations from a re-analysis of the deposited data

Results flagged for a closer look

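In 5 of 40 combinations of a gene and a group of 4 libraries, 1 library stood apart from the other libraries. Chance gives about 1 in 20 for independent normal values. The combinations share libraries, and the share over all genes was not computed, so the count is a description only. Ezh1 was at 1.46 FPKM in control blastocyst replicate 5, above the rest of its group. Suz12 was at 22.9 FPKM in the same library, below the rest. Eed was at 202 FPKM in KD blastocyst replicate 1, above the rest. Jarid2 was at 1.46 FPKM in 2-cell control replicate 1, below the rest. Ring1 was at 0.149 FPKM in KD blastocyst replicate 6, below the rest.

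The KD effect on Pcgf6 differed between blastocysts and morulae, by 0.85 on the log2 scale in the interaction test.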

How the results depend on the processing

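Among single-gene results, leaving out 1 library kept direction and side of the threshold in 1532 fits, lost the call in 123, gained it in 4 and turned its sign in 11. The other alternatives gave 1090, 65, 5 and 16. Genes whose sign turned were not called, and the cause was not tested. With FPKM as deposited, the KD effect in morulae was -0.055 for Ezh1 and -0.0251 for Pcgf6, and the interaction was 0.0264 for Suz12. With an equal total of 1e+06, the KD effect in morulae was -0.0548 for Ezh2, -0.10 for Ezh1 and -0.0814 for Pcgf6. H2afz was -0.14 from 2-cell to morula, Ezh1 was -0.0575 from morula to blastocyst, and the interaction was 0.10 for Eed, 0.19 for Suz12 and 0.11 for Rnf2. With the replicate number as a block, the KD effect in morulae was -0.18 for Ezh2, -0.0892 for Ezh1, 0.19 for Suz12 and -0.00943 for Pcgf6, and H2afz was -0.18 from 2-cell to morula. No label says that equal numbers pair samples. The mean r between KD and control libraries, after group means were removed, was 0.146, 0.138 and 0.0826 for equal numbers at the 3 stages and -0.0487, -0.0282 and -0.0288 for different numbers, with overlapping ranges. In morulae KD replicates 1 and 2 had r of 0.0943 to 0.181 with controls 1 and 2 and -0.235 to -0.0944 with controls 7 and 8. KD replicate 6 had -0.278 and -0.207 with controls 1 and 2, and 0.185 and 0.346 with controls 7 and 8. At the 2-cell stage KD replicates 1 and 4 split likewise by low and high numbers (0.163 to 0.214 against -0.237 to -0.168), and KD replicate 2 did not (-0.0211 to 0.0147). Leaving out a library gave -0.14 to 0.0201 for Mtf2 in KD 2-cell embryos, -0.0509 to 0.0382 for Ezh1 and -0.24 to 0.17 for Suz12 in KD morulae, -0.30 to 0.000242 for Suz12 in KD blastocysts and -0.0621 to 0.0408 for Ezh1 from morula to blastocyst. The interaction ran from -0.37 to 0.0449 for Suz12 and from -0.22 to 0.56 for Jarid2.

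The number of members called in KD morulae was 0 with no filter, as deposited, with the equal total and with the block, 2 with a batch by range of replicate numbers, which was chosen after seeing the data, and 0 to 1 without a library. In KD blastocysts it was 1 as deposited and with the block, and 1 to 2 without a library. From 2-cell to morula it was 7 to 8 without a library, 9 with no filter, where Ring1 was tested and passed (0.00276), and 6 with the block, which lost Ezh2 (0.109) and Mtf2 (0.203). With the equal total it was 8, with Cbx7 (0.0474) gained and Mtf2 lost. From morula to blastocyst it was 4 to 5 without a library, 5 as deposited with Mtf2 (0.0396) and 5 with the equal total with Eed (0.0169). Rnf2 in KD morulae had an adjusted p of 0.0996 with no filter, 0.102 as deposited, 0.151 with the equal total and 0.0554 with the block, but 0.0443 with a pseudocount of 0.1 and 0.0254 with the batch. Jarid2 passed with the batch (0.0436). Ezh2 in KD blastocysts was 0.0757 as deposited and 0.0673 with the block. The number of genes called in KD morulae was 412 with no filter and 552 to 1744 without a library, 0 to 3 in KD 2-cell embryos, 3461 to 4147 in KD blastocysts, and for the interaction 983 with no filter and 958 to 1720 without a library. The centring of the scaling factors was set after a first fit had been seen. Uncentred scaling changed no call of a member, and the number of genes called by at most 2.

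The equal total moved the median of all genes by -0.156 in KD morulae, -0.325 from 2-cell to morula and 0.278 for the interaction. The deposited scale moved it by -0.1 in KD morulae and 0.119 for the interaction, and no filter moved it by -0.113 from 2-cell to morula. Of genes called in KD morulae 31.8% were higher, against 15.3% as deposited and 11.8% with the equal total. For the interaction 46.3% were higher, against 73.3%. FPKM give no depth, so how far low values of Ring1 and Cbx7 are limited by it is unknown.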
